A study of Mus musculus with 2 samples.

Results

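Expression of fibroblast growth factor (FGF) ligands, their receptors and the genes that feed back on the signal was compared between teratomas of E14 cells and of E14-Sox2TA/WT cells, with 1 library each. The genes were picked out of the deposited table by symbol. These symbols and the gene lists used below were drawn up with earlier results of these data known. The rows were the protein-coding ones named Fgf or Fgfr with a number, Fgfrl1, Spry1 to Spry4, Spred1 to Spred3, Dusp6, Etv4 or Etv5. These names matched 36 of the 45777 rows. They were 18 secreted ligands, 4 intracellular FGF homologous factors (FHFs), 5 receptors and 9 feedback genes. Spry3 was not analysed here.

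E14 is a mouse embryonic stem cell (ESC) line, and E14-Sox2TA/WT cells are E14 cells in which CRISPR/Cas9 changed threonine 258 of Sox2 to alanine (T258A) on 1 allele and left the other allele wild type. The edited cells were clones raised from sorted individual cells and kept with 2i, which contains the MEK inhibitor PD0325901, before it was removed for the experiments. How many clones were inoculated is not given in the sources used here. Cells of either genotype were placed with Matrigel under the skin of BALB/c-nu mice, a strain without a thymus, in 3 mice per group, and the teratomas were taken after 14 days. PolyA RNA was sequenced. The labels give teratoma as the tissue, although the wording of their extraction protocol refers to an ESC line, and they do not say how many teratomas went into a library. Host cells in a teratoma are mouse cells too, so reads of the host and of the graft cannot be told apart.

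FGF ligands are secreted proteins that bind receptor tyrosine kinases together with heparan sulfate, a sugar chain of the cell surface, and switch on the Ras and ERK kinase cascade. ERK raises the transcription of Dusp6, of the ETS factors Etv4 and Etv5 and of the Sprouty and Spred genes, several of which then dampen the cascade. In the early mouse embryo FGF signaling moves ESCs out of naive pluripotency and patterns the mesoderm and the neural tube. The FHFs resemble the ligands in sequence, but they are not secreted, do not act through the receptors in the usual way and bind sodium channels of neurons and muscle.

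The depth was 50529171 reads on genes for E14 and 49030281 for E14-Sox2TA/WT. Levels below are in TPM, a unit that scales reads by transcript length and gives each library the same sum. With 1 library per group, no difference has a replicate check and no p-value was computed. The intervals given are at 95% by the Clopper-Pearson method on reads, and they cover counting error only. Sequencing reads are not independent molecules. Ratios and folds are of the deposited TPM, and medians are of log2 ratios, E14-Sox2TA/WT over E14, with 1 added to each TPM. A TPM of 1 or more in either library was reached by 18558 genes, and their median log2 ratio was -0.06. With FPKM in place of TPM that median was 0.11, so ratios of TPM sit lower for every gene alike. Sox2 had 14585 reads (TPM 246) in the E14 teratoma and 8623 reads (TPM 130) in the E14-Sox2TA/WT teratoma, with its alleles not separated. In bulk tissue, fewer cells of a type and less RNA per cell cannot be told apart.

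The TPM of the 36 genes summed to 619 for E14 and 548 for E14-Sox2TA/WT, but different genes led. Fgfr1, Fgf15 and Fgfr3 had the highest TPM of the 36 genes in the E14 teratoma, and Dusp6, Etv5 and Fgfr1 had the highest in the E14-Sox2TA/WT teratoma. Fgf4, Etv5 and Dusp6 were higher in E14-Sox2TA/WT, and Fgfr3, Fgf15, Fgf11, Fgf13, Spred2 and Spred3 were lower, by a 2-fold rule, a ratio of TPM above 2 where either library had a TPM of 10 or more. The study's methods set that fold and that TPM minimum but do not say that the fold is one of TPM, which was the choice made here. Of the 36 genes, 17 reached that TPM, and 3 of these (17.6%) were higher and 6 (35.3%) lower. Over all 11578 genes that reached it, 10.8% were higher and 18.7% lower. The other 8 genes that reached it, Fgf8, Fgfr1, Fgfr2, Fgfrl1, Etv4, Spred1, Spry1 and Spry2, differed by less than 2-fold.

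Over the 30 genes with a TPM of 1 or more in either library, 13 were higher and 17 lower, with a median log2 ratio of -0.45, while 52.5% of all 18558 genes at that minimum were lower. Apart from Spred2, each of these genes kept its direction under all 8 scalings of the libraries that were tried. The median was 0.14 over 12 ligands, -1.54 over the 4 FHFs, -0.49 over the 5 receptors and 0.33 over the 9 feedback genes. At the TPM minimum of 10 used for the 2-fold rule, the ligand median turned to -0.87 with 3 ligands left and the feedback median was 0.03. The median over all 11578 genes at that minimum was -0.18. The remaining 6 genes, the ligands Fgf6, Fgf16, Fgf20, Fgf21, Fgf22 and Fgf23, stayed below a TPM of 1 in both libraries.

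**Figure D1:**
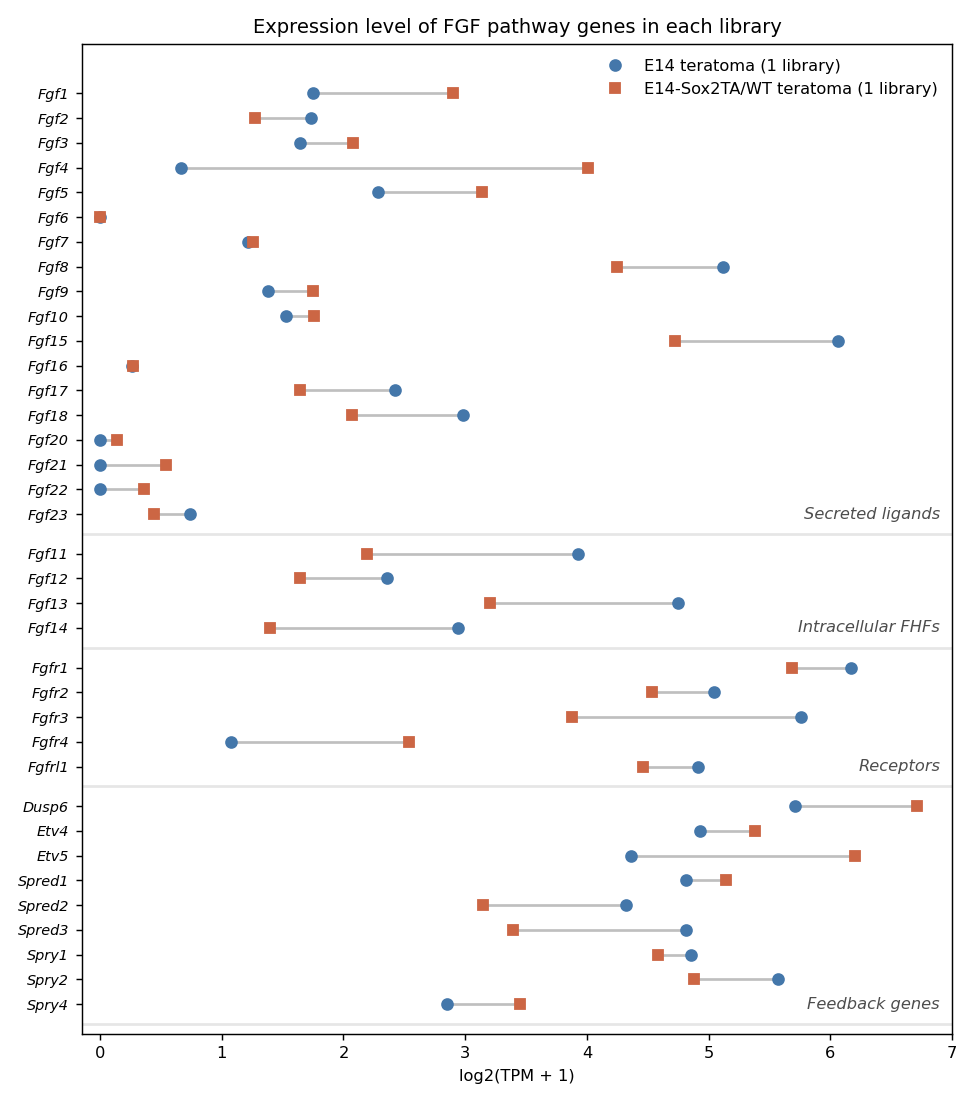
Level of each of the 36 genes, as log2 of TPM plus 1 on the horizontal axis, with genes in rows grouped by role, circles for the E14 teratoma library and squares for the E14-Sox2TA/WT teratoma library. Each point is 1 library, so there are no error bars. All 4 FHFs lie to the left in the E14-Sox2TA/WT teratoma, and Fgf4, Etv5, Dusp6 and Fgfr4 lie to the right.

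Fgf4 showed the widest difference of all 36 genes. It encodes the ligand through which ESCs signal to themselves and is a textbook target of Sox2 and Oct4. Fgf4 had 43 reads (TPM 0.584) in the E14 teratoma and 1229 reads (TPM 15.1) in the E14-Sox2TA/WT teratoma, a ratio of TPM of 25.8 (interval 19.1 to 35.9). It ranked among the rarest of these genes in the first library and was the third most abundant secreted ligand in the second. Markers of pluripotent cells moved with it. All 9 markers listed were higher with E14-Sox2TA/WT, with a summed TPM of 82.3 in the E14 teratoma and 1924 in the other and a median log2 ratio of 3.64. Pou5f1, which encodes Oct4, had 621 and 11054 reads. The part of pluripotent cells in the Fgf4 difference was not tested.

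Fgf5, a ligand of the same subfamily that marks the epiblast after implantation, had 233 reads (TPM 3.88) in the E14 teratoma and 521 reads (TPM 7.79) in the E14-Sox2TA/WT teratoma. Its ratio of TPM was 2.01 (interval 1.72 to 2.36), so counting error alone spans values on either side of 2-fold. The promoters of Fgf4 and Fgf5 are shown because these were the ligands of that subfamily that were higher, and to see whether they share short binding motifs. Each is the 250 bases before the start of transcription, from RefSeq on GRCm38.p6, written 5′ to 3′ in the direction of the gene. Fgf4 is the plus strand of chr7:144861136-144861385 and Fgf5 the plus strand of chr5:98253934-98254183. Capitals mark the letters TTCCGG, the core motif of ETS factors on the other strand, and ACAAAG, a core that Sox factors can bind.
Fgf4: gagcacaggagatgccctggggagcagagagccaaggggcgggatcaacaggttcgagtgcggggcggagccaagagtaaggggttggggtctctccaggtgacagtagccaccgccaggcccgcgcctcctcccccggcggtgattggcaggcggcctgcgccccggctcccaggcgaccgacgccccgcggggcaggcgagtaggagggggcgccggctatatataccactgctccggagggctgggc
Fgf5: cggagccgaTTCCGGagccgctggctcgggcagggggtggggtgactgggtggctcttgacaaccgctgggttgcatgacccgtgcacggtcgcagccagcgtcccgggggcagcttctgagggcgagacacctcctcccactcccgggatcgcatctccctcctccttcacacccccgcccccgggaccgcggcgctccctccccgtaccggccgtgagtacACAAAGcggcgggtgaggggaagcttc
The Fgf5 window held both motifs and the Fgf4 window neither. The element of Fgf4 that Sox2 and Oct4 are known to bind lies downstream of its coding sequence and is outside this window.

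The fibroblast mitogens of the FGF1 subfamily went in opposite directions. Fgf1 had 225 reads (TPM 2.36) in the E14 teratoma and 724 reads (TPM 6.45) in the E14-Sox2TA/WT teratoma, a ratio of 2.74 (interval 2.35 to 3.19). Fgf2 had 338 reads (TPM 2.33) and 237 reads (TPM 1.42), which was 1.64-fold lower (interval 1.38 to 1.94). The gene Fgf2os overlaps Fgf2 at its 5′ end on chromosome 3, and the sources used here do not say whether counting used strand, so reads in the overlap cannot be told apart. Fgf6, a ligand of muscle, had 0 reads in both libraries, and a count of 0 allows up to 3 reads.

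Fgf15 and Fgf8 were the most abundant ligands in both libraries, and both were lower with E14-Sox2TA/WT. Fgf15, the mouse counterpart of human FGF19, is made in the embryonic neural tube and later in the intestine. It had 2860 reads (TPM 65.7) in the E14 teratoma and 1236 reads (TPM 25.4) in the E14-Sox2TA/WT teratoma, which was 2.58-fold lower (interval 2.42 to 2.76). Fgf8, a patterning signal of the primitive streak and of the midbrain and hindbrain border, had 954 reads (TPM 33.8) and 543 reads (TPM 18.0), which was 1.88-fold lower (interval 1.69 to 2.09). Its relatives Fgf17 and Fgf18, which act in the same part of the brain, were low in both libraries. Fgf17 had 177 and 96 reads, a TPM of 4.36 against 2.12. Fgf18 had 263 and 133 reads, a TPM of 6.88 against 3.19. All 3 relatives were thus lower in the E14-Sox2TA/WT teratoma.

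Markers of neural progenitors and of neurons were lower beside them. All 7 neural progenitor markers were lower, with a summed TPM of 2901 in the E14 teratoma and 858 in the E14-Sox2TA/WT teratoma. The most abundant of these, Fabp7, had TPM values of 2497 and 708. The 7 markers of intestinal epithelium, another source of Fgf15, had a summed TPM of 4.64 in the E14 teratoma and 40.0 in the other, and the 6 of them with a TPM of at least 1 were higher. The part of either cell type in the level of Fgf15 was not tested.

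The ligands that mesenchyme sends to epithelium, and Fgf9, sat at a few TPM. Fgf10, a signal for budding organs such as the lung, had 207 reads (TPM 1.88) in the E14 teratoma and 294 reads (TPM 2.39) in the E14-Sox2TA/WT teratoma. Fgf7, also called keratinocyte growth factor, had 86 and 101 reads, and the interval of its ratio, 0.779 to 1.42, included 1. Fgf3, a ligand of the inner ear and tail bud, had 62 reads (TPM 2.13) and 104 reads (TPM 3.21), with an interval of 1.09 to 2.102. Fgf9, which signals from epithelium to mesenchyme in several organs, had 158 reads (TPM 1.60) and 260 reads (TPM 2.36), with an interval of 1.20 to 1.81. None of these 4 ligands reached a 2-fold difference. All 7 markers of mesenchyme were higher with E14-Sox2TA/WT, with a summed TPM of 379 and 789, and their part in the level of Fgf7 and Fgf10 was not tested.

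The rarest ligands were counted in few reads. Fgf21, a hormone of the liver, had 0 reads in the E14 teratoma and 12 in the E14-Sox2TA/WT teratoma, which was at least 4.12-fold higher in library-scaled reads when the 0 is set to the 3 reads per library it allows and the 12 reads are taken as exact. The lower limit of its counting interval was a ratio of 2.86. Fgf22 had the same counts, bound and limit. Fgf20 had 0 and 5 reads, a ratio of at least 1.72 on the first basis, with a lower counting limit of 0.944, below 1. Fgf16 had 15 and 18 reads, with an interval of the TPM ratio of 0.5005 to 2.24. Fgf23, a hormone of phosphate balance made in bone, had 24 and 27 reads, while its TPM of 0.671 and 0.361 was 1.86-fold lower (interval 1.03 to 3.35). Its reads per unit of FPKM, described with Spred2, changed 1.88-fold. Apart from Fgf21 and Fgf22, no difference in read counts was detectable at this depth for these genes. All 8 markers of visceral endoderm and liver were higher with E14-Sox2TA/WT, with a summed TPM of 6.38 and 333. Apoa4 among them had 0 and 896 reads, and the part of such cells in the Fgf21 reads was not tested.

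The ligand pool differed in its make-up. The TPM of all 18 secreted ligands summed to 128 in the E14 teratoma and 90.2 in the E14-Sox2TA/WT teratoma. Fgf15 held 51.5% of that sum in the first and 28.2% in the second. Fgf8 held 26.5% and 19.9%, or 16.9% and 9.78% of the reads of all ligands. The share of Fgf4 was 0.458% in the E14 teratoma and 16.7% in the other, that of Fgf5 was 3.04% and 8.63%, and that of Fgf1 was 1.84% and 7.15%. A share within a library does not depend on how the libraries are scaled to each other. As a share of the ligands' reads in place of TPM, Fgf4 held 0.762% (Wilson 95% interval 0.566% to 1.02%) and 22.1% (21.1% to 23.2%).

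**Figure D2:**
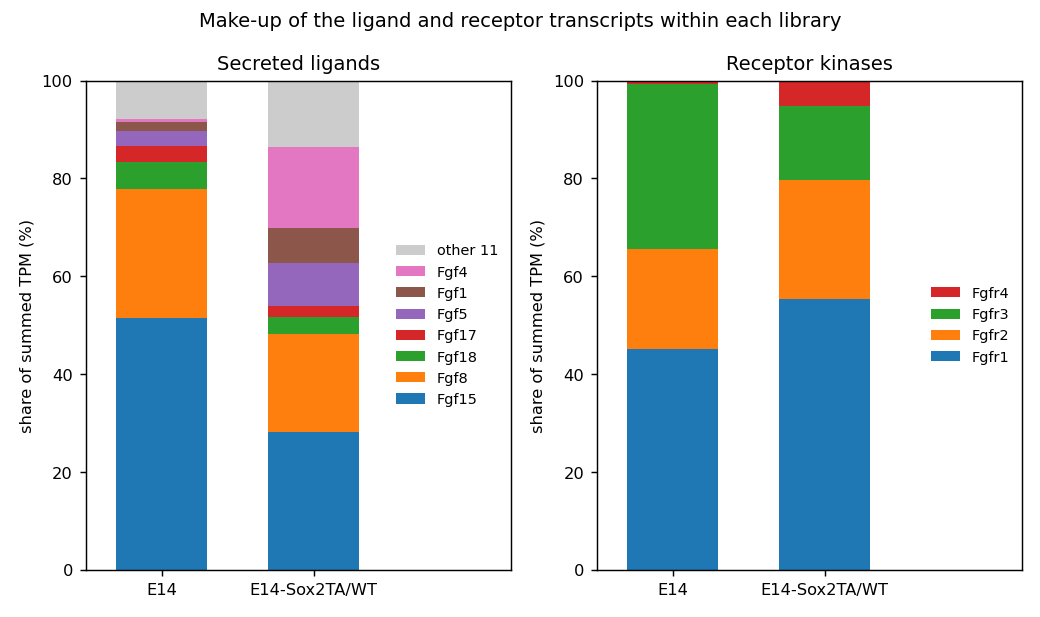
Share of the summed TPM, in percent on the vertical axis, held by each secreted ligand (left panel) and by each receptor kinase (right panel), with 1 stacked bar per library. Fgf15 and Fgf8 fill most of the E14 ligand bar, Fgf4 grows from 0.458% to 16.7%, and Fgfr3 shrinks from 33.8% to 15.1% of the receptors.

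Of the FHFs, 4 of 4 were lower with E14-Sox2TA/WT. Fgf13, which binds microtubules and sodium channels in young neurons, had 1576 reads (TPM 25.8) in the E14 teratoma and 557 reads (TPM 8.21) in the E14-Sox2TA/WT teratoma, which was 3.15-fold lower (interval 2.86 to 3.47). Fgf11 had 1257 reads (TPM 14.2) and 357 reads (TPM 3.57), which was 3.99-fold lower (interval 3.55 to 4.50). Fgf14, whose loss causes ataxia, had 866 reads (TPM 6.66) and 240 reads (TPM 1.63), which was 4.09-fold lower (interval 3.54 to 4.74). Fgf12 had 560 reads (TPM 4.12) and 314 reads (TPM 2.12) and differed least, at 1.94-fold lower (interval 1.69 to 2.23). The intervals of Fgf11, Fgf13 and Fgf14 lay wholly beyond 2-fold, and that of Fgf12 did not. The summed TPM of the 4 genes was 50.9 in the E14 teratoma and 15.5 in the other, which was 3.27-fold lower.

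Neuron markers were lower beside them, in 12 of 12 cases, with a median log2 ratio of -2.16, against -1.54 for the FHFs. Their summed TPM was 3223 in the E14 teratoma and 556 in the E14-Sox2TA/WT teratoma, which was 5.79-fold lower. Tubb3, a tubulin of neurons, had TPM values of 1722 and 170. Markers of skeletal muscle, where FHFs also occur, were lower in 6 of 7 cases, with a summed TPM of 313 and 175. The part of neurons and muscle in the FHF difference was not tested.

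Among the receptors, Fgfr3 and Fgfr4 stood apart from the rest. Fgfr3, a receptor of neural progenitors, glia and cartilage, had 5375 reads (TPM 53.1) in the E14 teratoma and 1549 reads (TPM 13.7) in the E14-Sox2TA/WT teratoma, which was 3.87-fold lower (interval 3.66 to 4.10). Fgfr4, a receptor of definitive endoderm, liver and developing muscle, had 84 reads (TPM 1.104) and 333 reads (TPM 4.80), a ratio of 4.35 (interval 3.41 to 5.59). Fgfr4 stayed below a TPM of 10 in both libraries and so was outside the 2-fold rule. With the TPM minimum at 1, 6 of 30 genes were higher and 9 lower, against 19.3% and 18.9% of all genes at that minimum, and Fgfr4 was among the higher genes together with Fgf1 and Fgf5.

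The other receptors differed by less than 1.5-fold. Fgfr1, the main receptor of ESCs and mesenchyme, had 8565 reads (TPM 70.9) in the E14 teratoma and 6797 reads (TPM 50.4) in the E14-Sox2TA/WT teratoma, which was 1.41-fold lower (interval 1.36 to 1.45). Fgfr2, the receptor of many epithelia, had 3906 reads (TPM 32.0) and 3038 reads (TPM 22.1), which was 1.45-fold lower. Fgfrl1, a receptor that lacks the kinase domain, had 1839 reads (TPM 29.1) and 1498 reads (TPM 21.1), which was 1.38-fold lower. These 3 genes fell in a narrow band near a log2 ratio of -0.5, below the median of all genes, which was -0.18 at a TPM minimum of 10. Relative to genes of similar transcript length at that minimum, the ratio of TPM was 0.987 for Fgfr1, 0.961 for Fgfr2 and 0.838 for Fgfrl1. Their difference from comparable genes thus depended on the scaling. Over all genes of chromosome 8, which carries Fgfr1, the median log2 ratio was -0.48, and Fgfr1 itself had -0.49.

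The receptor pool shifted from Fgfr3 to the others. Of the summed TPM of the 4 receptor kinases, Fgfr1 held 45.1% in the E14 teratoma and 55.3% in the E14-Sox2TA/WT teratoma. Fgfr2 held 20.4% and 24.3%. Fgfr3 held 33.8% and 15.1%, and Fgfr4 held 0.703% and 5.27%. The order of the 4 kinases by TPM changed in 1 place, since Fgfr3 ranked above Fgfr2 in the E14 teratoma and below it in the other. By reads, Fgfr3 held 29.98% (Wilson 95% interval 29.3% to 30.7%) and 13.2% (12.6% to 13.8%). Cartilage markers, where Fgfr3 is known to act, had a summed TPM of 120.2 and 122.6. Sox9 and Col2a1 made up most of both sums, with TPM values of 44.1 and 16.9 for Sox9 and 58.0 and 74.8 for Col2a1. Of the 8 cartilage markers at a TPM of 1 or more, 5 were higher and 3 lower, with a median log2 ratio of 0.52. The neural progenitor markers given above were 3.38-fold lower in sum. The part of these cell types in the Fgfr3 difference was not tested.

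**Figure D3:**
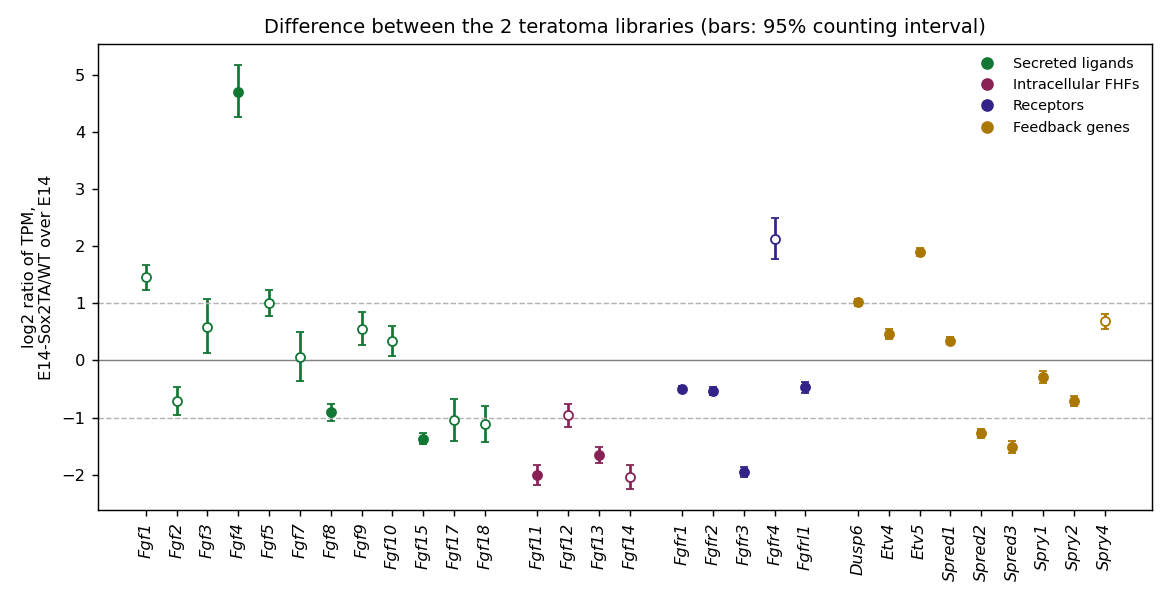
log2 ratio of TPM, E14-Sox2TA/WT over E14, on the vertical axis for the 30 genes with a TPM of 1 or more in either library, grouped and coloured by role. Bars are 95% counting intervals by the Clopper-Pearson method, filled points reached a TPM of 10 in at least 1 library and dashed lines mark 2-fold. Fgf4 is highest, and the FHFs Fgf11, Fgf13 and Fgf14, with Fgfr3 and Spred3, are the lowest.

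The feedback genes went both ways. Dusp6 and the ETS factors were higher in 3 of 3 cases, with a median log2 ratio of 1.01, and their summed TPM was 100.3 in the E14 teratoma and 217 in the E14-Sox2TA/WT teratoma. The pluripotent cell markers were higher beside them, in 9 of 9 cases and from 82.3 to 1924 in summed TPM, and their part in these genes was not tested. The Sprouty and Spred genes were higher in 2 of 6 cases and lower in 4, with a summed TPM of 154 and 113. The median of the latter, a log2 ratio of -0.48 on TPM, was 0.03 with library-scaled reads, so its direction depended on the scaling.

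Etv5 differed most of the first class. Etv5, an ETS factor induced by FGF and also active in ESCs, had 1914 reads (TPM 19.5) in the E14 teratoma and 7641 reads (TPM 72.7) in the E14-Sox2TA/WT teratoma, a ratio of 3.72 (interval 3.54 to 3.92). Dusp6, the phosphatase that switches ERK off, had 3454 reads (TPM 51.3) and 7817 reads (TPM 104.0), a ratio of 2.03 (interval 1.95 to 2.11). It therefore met the 2-fold rule narrowly on TPM, and its interval included 2. By reads scaled to the library total its ratio was 2.33 (interval 2.24 to 2.43), wholly above 2. Etv4, the close relative of Etv5, had 1639 reads (TPM 29.5) and 2515 reads (TPM 40.6), a ratio of 1.38 (interval 1.30 to 1.47).

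The Spred genes, membrane proteins that inhibit the cascade, went different ways. Spred3 had 2699 reads (TPM 27.1) in the E14 teratoma and 1035 reads (TPM 9.52) in the E14-Sox2TA/WT teratoma, which was 2.85-fold lower (interval 2.65 to 3.06). Spred1, which binds neurofibromin, had 4038 reads (TPM 27.0) and 5815 reads (TPM 34.3), a ratio of 1.27 (interval 1.22 to 1.32). Spred2 gave opposite answers by TPM and by reads. Its TPM was 19.0 in the E14 teratoma and 7.85 in the other, which was 2.42-fold lower, while its reads numbered 2376 and 2512, a ratio of library-scaled reads of 1.09 (interval 1.03 to 1.15). Reads per unit of FPKM, a measure of the transcript length that the authors' software assigned, changed 2.296-fold for Spred2 between the libraries. Of the 23 genes of the 36 with at least 200 reads in each library, Spred2 was the 1 where this measure changed by over 10%. Among all 12805 genes with that many reads, it changed by over 2-fold in 0.203%. The lower TPM of Spred2 was thus not a lower number of reads on the gene.

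**Figure D4:**
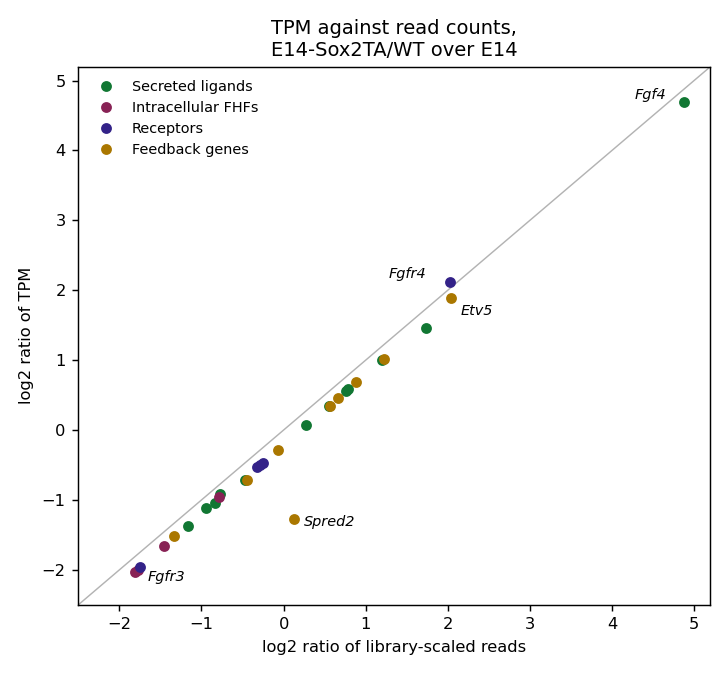
log2 ratio of TPM on the vertical axis against log2 ratio of library-scaled reads on the horizontal axis, E14-Sox2TA/WT over E14, for the 30 genes with a TPM of 1 or more in either library, coloured by role, with the line of equal values. The genes run parallel to the line, slightly below it in most cases, and Spred2 falls far below at a TPM that was 2.42-fold lower with a read ratio of 1.09.

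The Sprouty genes, which inhibit the Ras cascade below the receptors, differed by less than 2-fold. Spry2 had 2445 reads (TPM 46.5) in the E14 teratoma and 1735 reads (TPM 28.4) in the E14-Sox2TA/WT teratoma, which was 1.64-fold lower (interval 1.54 to 1.74). Spry1 had 1563 reads (TPM 28.0) and 1443 reads (TPM 22.9), which was 1.22-fold lower, and its interval by library-scaled reads, 0.885 to 1.02, included 1. Spry4, an early target of FGF in ESCs, had 700 reads (TPM 6.21) and 1254 reads (TPM 9.95), a ratio of 1.60 (interval 1.46 to 1.76). Spry4 was the 1 Sprouty gene that was higher.

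Promoters of Etv5 and Spred3 are shown because these feedback genes differed most in opposite directions. Each is again the 250 bases before a start of transcription, from RefSeq on GRCm38.p6, 5′ to 3′ in the direction of the gene. Etv5 is the minus strand of chr16:22438369-22438618, before the downstream start of a pair listed for the gene, and Spred3 the minus strand of chr7:29168648-29168897. Both windows lie inside the span given for the gene, downstream of its outermost start and outside annotated exons of GENCODE vM21. There are no capitals because none of the motifs searched was found in either window.
Etv5: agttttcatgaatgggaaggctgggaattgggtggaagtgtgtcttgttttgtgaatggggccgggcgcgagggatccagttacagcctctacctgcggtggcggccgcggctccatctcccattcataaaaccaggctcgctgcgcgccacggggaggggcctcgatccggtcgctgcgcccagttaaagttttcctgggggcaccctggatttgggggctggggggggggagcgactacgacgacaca
Spred3: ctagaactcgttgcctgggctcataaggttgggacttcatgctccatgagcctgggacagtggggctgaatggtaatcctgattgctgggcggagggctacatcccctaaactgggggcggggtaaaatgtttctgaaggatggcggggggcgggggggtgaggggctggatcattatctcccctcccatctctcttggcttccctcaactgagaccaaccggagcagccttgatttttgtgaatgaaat
RefSeq windows were at hand for 27 of the 36 genes, 35 windows in all. Searched on both strands, the ETS core CCGGAA was in 4 of the 35 windows (11.4%) and in 12.03% of all 32851 windows. The Sox core ACAATG was in 1 window (2.86%), against 10.7% of all windows. The Sox core ACAAAG was in 5 windows (14.3%), those of Fgf5, Fgf7, Fgf13, Spred2 and Spry2, against 16.5% of all. The octamer ATGCAAAT, bound by POU factors such as Oct4, was in 0 of the 35 windows and in 1.60% of all. Members and all genes thus held the ETS core and ACAAAG in similar shares, while ACAATG had a smaller share among members, resting on 1 window. Genes with the ETS core or ACAAAG were found among those higher and those lower.

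Genes that help FGFs reach their receptors were counted by the same rule. Of 20 co-receptors and binding proteins, 19 were found and 15 reached a TPM of 10, of which 2 were higher and 6 lower, against 10.8% higher and 18.7% lower over all genes. Fgfbp3, which releases FGFs from the matrix, had TPM values of 104.5 in the E14 teratoma and 13.7 in the E14-Sox2TA/WT teratoma, and was 7.63-fold lower. The syndecan of neurons, Sdc3, had values of 175 and 40.0, and Ncam1, a neural adhesion protein that can bind FGF receptors, had 115 and 22.7. The glypican Gpc3, the most abundant gene of the list, had 295 and 371. The median log2 ratio over its 17 members at a TPM of 1 or more was -0.53. Klb, the co-receptor for Fgf15 and Fgf21, was outside the rule for naming genes and was chosen after its values were seen. It had 31 reads (TPM 0.367) in the E14 teratoma and 331 reads (TPM 3.01) in the other.

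Enzymes that build or trim heparan sulfate, the sugar chain FGFs need for binding, were lower in 14 of 15 cases, where 52.5% of all genes were lower. Neuron markers (12 of 12) and neural progenitor markers (7 of 7) were lower too, and their part in this was not tested. The median log2 ratio of the heparan sulfate enzymes was -0.86. Of the 12 enzymes that reached a TPM of 10, 0 were higher and 3 lower by the 2-fold rule, against 18.7% lower of all genes. Ext2, part of the enzyme that extends the chain, had TPM values of 91.8 and 41.5. Ndst1, which starts its sulfation, had 66.0 and 22.2. Hs6st3 had 267 reads in the E14 teratoma and 7 in the E14-Sox2TA/WT teratoma. The sulfatases Sulf1 and Sulf2, which trim sulfate from the chain and limit FGF binding, had 149 and 104 and 145 and 87.1, within 2-fold.

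The kinases and adaptors between receptor and ERK were all well expressed. All 22 reached a TPM of 10, and 5 were higher and 17 lower, while 6831 of all 11578 genes at that minimum were lower. The median log2 ratio was -0.45, against -0.18 over all genes at that minimum. By the 2-fold rule 0 were higher and 4 lower, against 10.8% higher and 18.7% lower of all genes. Those 4 were Frs3, Plcg1, Sos2 and Pik3r1. Frs3, a docking protein of FGF receptors in neural tissue, had TPM values of 25.7 and 8.37, and Plcg1 had 48.3 and 20.8.

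Other genes known to respond to ERK went both ways. Of 16 listed, 15 had a TPM of at least 1, and 9 were higher and 6 lower, with a median log2 ratio of 0.03. Of all genes at that minimum, 52.5% were lower. By the 2-fold rule 2 were higher, Lgals3 and Ier3, and 2 lower, Fos and Egr1, of 14 that reached a TPM of 10. Over all genes that reached it, 10.8% were higher and 18.7% lower. Fos, an immediate early gene that also responds to handling of tissue, had TPM values of 96.5 and 32.5. Lgals3, a galectin that macrophages express at a high level, had 24.9 and 132.8. Ccnd1, a cyclin of the early cell cycle, had 126 and 92.6. All 7 macrophage markers were higher with E14-Sox2TA/WT, with a summed TPM of 800.1 and 1418, and their part in the level of Lgals3 was not tested.

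**Figure D5:**
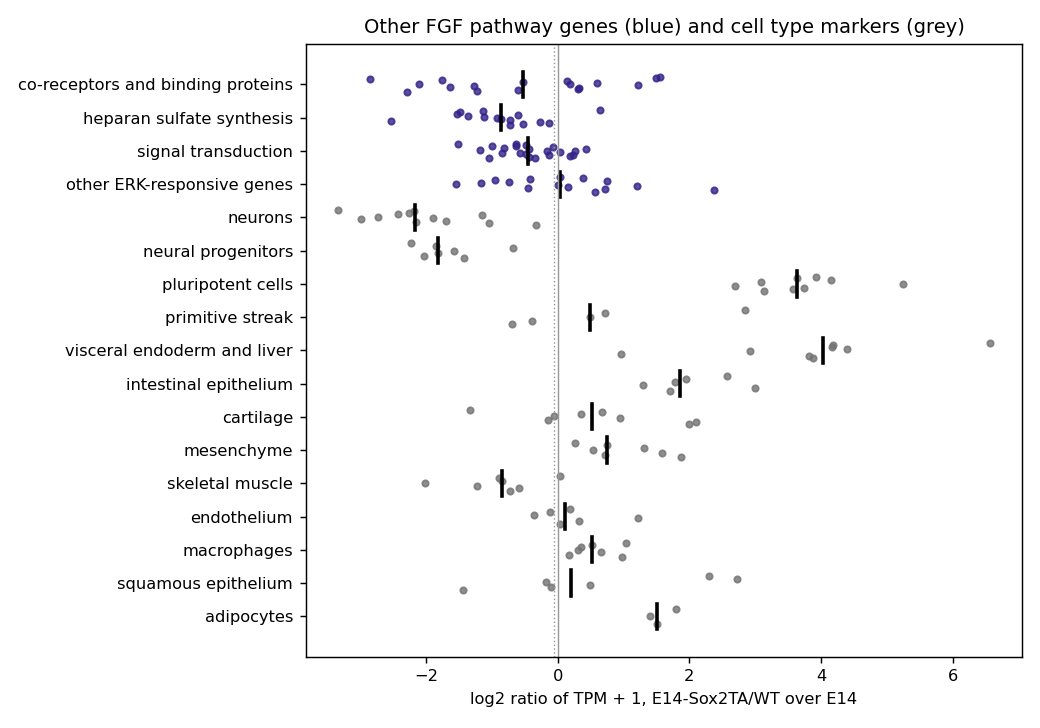
log2 ratio of TPM plus 1, E14-Sox2TA/WT over E14, on the horizontal axis for each gene of the pathway lists (blue) and cell type marker lists (grey) with a TPM of 1 or more in either library. Short black bars are list medians, the solid line is 0 and the dotted line the median of all genes, -0.06. Heparan sulfate genes lie mostly left of 0, neuron markers far left, and pluripotent and visceral endoderm markers far right.

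The remaining marker lists gave the setting of these values. Endothelial markers, the vessels in which FGF1 and FGF2 act, had a summed TPM of 87.9 in the E14 teratoma and 94.998 in the other, with 4 of 6 higher. Primitive streak markers, a source of Fgf4 and Fgf8 in the embryo, summed to 15.5 and 52.7, with 3 of 5 higher and 2 lower. The marker T made up most of the second sum, with TPM values of 4.73 and 40.1. Squamous epithelium summed to 51.2 and 202, with 3 of 6 higher, and adipocytes, where Fgf1 is known to act, to 26.7 and 76.6, with 3 of 3 higher. The part of these cell types in the level of any FGF gene was not tested.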

How the data were processed

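The RNA-seq libraries were 1 from E14 teratoma and 1 from E14-Sox2TA/WT teratoma. The authors deposited whole-number read counts per gene without normalization. The authors also deposited FPKM, in which counts are divided by depth and by the length of the transcript, and TPM, which is FPKM brought to the same sum in each library. The submitters' processing notes name bcl2fastq 2.20.0, Trimmomatic, HISAT2 2.1.0 and StringTie 2.1.3b, and mm10, without saying which tool made which column. Strand use in counting and whether a read is a fragment or a mate are not given in the sources used here. FPKM and TPM from software that assigns reads to isoforms can move with the isoform assignment, which counts do not.

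The 6 deposited value columns were used as they stand. Ratios of TPM, log2 ratios with a pseudocount of 1, medians and shares were computed over the whole table. The set of FGF symbols and the lists were drawn up with earlier results of these data known. Genes named were every FGF gene above and, of each pathway list, the 3 highest by TPM and the 2 largest by absolute log2 ratio, and of each marker list up to 2 with the highest TPM. Some genes that this rule names are not reported here. Genes outside this rule are the members that a count refers to, Klb and Apoa4. The fold and TPM minimum followed the study's methods and were applied to ratios of TPM, and no statistical test across genes was run with 1 library per group. Depth was 50529171 and 49030281 reads, and a count of 0 allows 3 reads. As alternatives, other values of the pseudocount, fold and TPM minimum were used, as were FPKM, read counts scaled to the library total or scaled by edgeR TMM factors or median-of-ratios, TPM without mitochondrial and hemoglobin genes, centring, transcript length, left-out chromosomes and counting error. The scripts were tested on simulated data. Promoters came from RefSeq (GRCm38.p6). Analyses used R 4.3.3 with edgeR 4.0.16 and Python 3.11.15 with scipy 1.17.1, numpy 2.4.6, matplotlib 3.10.9 and pandas 2.3.3.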

Additional observations from a re-analysis of the deposited data

Results flagged for a closer look

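Fgf2os, a noncoding gene that overlaps the 5′ end of Fgf2 on chromosome 3 from 37330257 to 37349841, is not among the protein-coding genes compared above. It had 0 reads in the E14 library and 9 reads in the E14-Sox2TA/WT library, above the 3 reads that a count of 0 allows. No other library was available to check it.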

How the results depend on the processing

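Of 100 recomputed counts, medians and shares, 82 stayed within the tolerance set for them, which was 1.5 times for counts, the order-statistic interval over genes for medians and the counting interval for shares. Most of the values that stayed were medians, for which the tolerance is wide, since each rests on few genes. Of the shares, that of Fgf15 in the E14 library alone stayed within its interval. The ligand median turned from 0.14 to -0.87 at a TPM minimum of 10, where 3 ligands were left, and the feedback median went from 0.33 to 0.03. The number of genes lower rose from 6 of 17 to 9 of 30 with a TPM minimum of 1. The number of genes higher rose from 3 of 17 to 6 of 30 with that minimum and to 9 without a minimum. Of all genes, 10.8% were higher and 18.7% lower at a minimum of 10, and 19.3% and 18.9% at a minimum of 1. With a fold above 3 the number lower went from 6 to 3. Shares of all genes without a minimum or with that fold are not given here. The median log2 ratio of the FHFs was -1.80 with a pseudocount of 0.1. As shares of reads in the E14 and E14-Sox2TA/WT libraries, Fgfr1 held 47.8% and 58.0%, Fgfr2 21.8% and 25.9%, Fgfr3 29.98% and 13.2%, Fgfr4 0.468% and 2.84%, Fgf8 16.9% and 9.78%, Fgf4 0.762% and 22.1%, and Fgf15 22.3% in the E14-Sox2TA/WT library. Of 210 values for single genes, 139 stayed within counting error, 69 moved beyond it and 2 changed sign. Both were Spred2, whose log2 ratio was 0.12 with reads scaled to the library total and 0.0012 with median-of-ratios scaling. Of the 9 genes that met the 2-fold rule, 8 met it under all 8 scalings tried, and Spred2 did not. Mitochondrial and hemoglobin genes held 5.21% of the E14 TPM and 9.74% of the E14-Sox2TA/WT TPM. No paired analysis was possible because each group has 1 library, which also means that no library could be left out. Depth limits Fgf6, Fgf16, Fgf20, Fgf21, Fgf22 and Fgf23, which had at most 27 reads in either library.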

Other observations

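Fgf3, Fgf4 and Fgf15 lie next to each other on chromosome 7 of mm10, and their values went different ways. Fgf3 runs from 144838612 to 144843348, Fgf4 from 144861386 to 144865245 and Fgf15 from 144896532 to 144900953, with gaps of 18.0 kb and 31.3 kb between them. Their log2 ratios, E14-Sox2TA/WT over E14, were 0.43, 3.34 and -1.34, so the gene in the middle was far higher and a neighbour lower. Other members lie near each other as well. Spry4 and Fgf1 on chromosome 18, with a gap of 237 kb, had log2 ratios of 0.60 and 1.15. Fgf2 and Spry1 on chromosome 3, with a gap of 230 kb, had log2 ratios of -0.46 and -0.28. These are values for 2 libraries, and whether neighbours move together was not tested.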
